A study of Mus musculus with 48 samples.

Results

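C/EBPα is a basic leucine zipper transcription factor, encoded by Cebpa, that binds as a dimer and is known in the liver as an activator of hepatocyte genes for glucose, amino acid and lipid metabolism and for plasma proteins. At birth the liver loses the placental supply of glucose and begins gluconeogenesis, fatty acid oxidation and ketone synthesis, while blood formation in it declines. The sites bound by C/EBPα on postnatal day 0.5 (P0.5) were set against those bound at embryonic day 18.5 (E18.5). Binding was read by chromatin immunoprecipitation with sequencing (ChIP-seq), which gives the places where DNA crosslinked to the factor piles up as peaks. Of 48 samples and 20 deposited peak lists of the series, 4 lists were used here, 2 biological replicates at P0.5 and 2 at E18.5. Peaks of both replicates of a stage were merged where they overlapped by at least 1 bp, and a merged region was taken as bound at that stage if it held a peak of each replicate. Of 99333 regions bound at either stage, 35080 (35.3%) were gained (bound at P0.5 and not at E18.5), 58751 (59.1%) were kept and 5502 (5.54%) were lost (bound at E18.5 and not at P0.5).

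All 4 ChIP samples were livers of untreated wild-type F1 mice (C57Bl6/CBA), precipitated with a C/EBPα antibody from Santa Cruz Biotech. The colony was kept on chow or a high fat diet, and the labels do not say which diet each sample had. Whether a library pooled several livers is not given in the sources used here. RNA was compared between livers of C/EBPa lox/lox, Alfp-Cre mice, in which a Cre active in the liver lineage deletes Cebpa, and wild-type (WT) livers, with 3 libraries each, and livers of HNF4a lox/lox, Alfp-Cre mice (2 libraries) entered the same fit. The labels of these RNA samples state 60 days of age, whereas E18.5 is the age in the series description. Some listed fetal liver genes were high in the WT libraries. Afp, the fetal albumin, stood at 625821, 499143 and 706964 normalized reads, and H19 at 724668, 303520 and 524635. Lin28b of the same list stood at 168, 113 and 210. Of cytochrome P450 genes, Cyp1a2 stood at 8, 18 and 4, and Cyp2e1 at 12492, 10077 and 5381. Which age holds was not tested. No RNA was measured on both sides of birth, so the RNA says nothing of levels before and after it.

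The count of gained over lost regions rested on 1 list. The P0.5 lists held 107438 and 121624 peaks, against 108853 and 70171 at E18.5, or 114531 ± 10031 at P0.5 and 89512 ± 27352 at E18.5 (SD, n = 2 each), so the stages overlapped. The second E18.5 list was the shortest, and 94.0% of its peaks lay in the first E18.5 list, which shared 60.8% of its own with it. Of the gained regions, 20477 (58.4%) had a peak in E18.5 replicate 1 and lacked one in E18.5 replicate 2 only, and 12846 (36.6%) had none in either E18.5 list. Of the lost regions, 1946 (35.4%) had no peak in either P0.5 list. Without E18.5 replicate 2 there were 14615 gained, 79420 kept and 26976 lost regions, so losses exceeded gains. Without P0.5 replicate 1 there were 58265 gained and 3088 lost. With every list cut to its 70171 widest peaks there were 15256 gained, 35773 kept and 15447 lost regions. Lists of 2 against 2 cannot give a two-sided exact permutation p below 0.333, so no test was made of the stage difference, and neither a net gain nor a net loss of binding is shown.

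**Figure D1:**
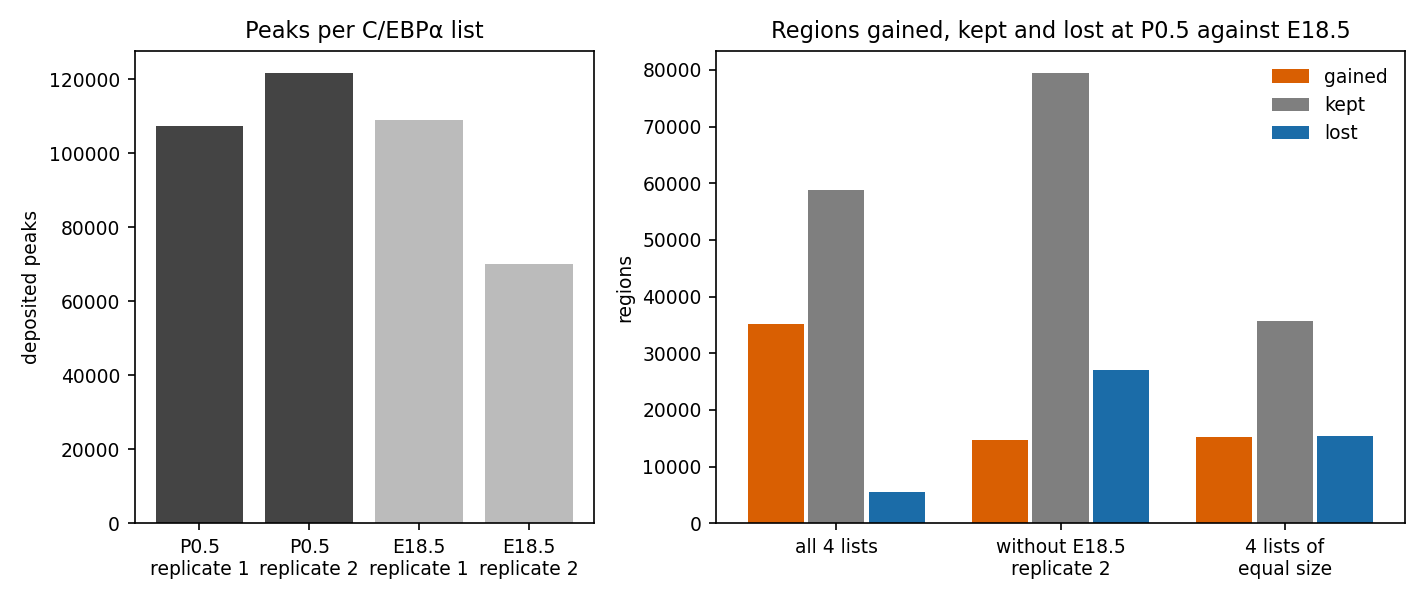
Left, number of deposited C/EBPα peaks in each of the 2 lists at P0.5 and the 2 at E18.5. Right, number of regions gained, kept and lost at P0.5 against E18.5 with all 4 lists, without E18.5 replicate 2 and with lists of equal size. Kept regions were the most numerous each time, while gained regions outnumbered lost ones with all 4 lists (35080 against 5502) and not without E18.5 replicate 2 (14615 against 26976).

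The letters of the C/EBP motif stood in promoters of each class, and 5 promoters show where. They are RefSeq sequences of GRCm38.p6, from 250 bases before to 50 after the start site, 5′ to 3′ on the gene's strand, with each match to TTGCNNAA on either strand in capitals; the peaks themselves are placed on mm9. Acaa1a (chr9:119341044-119341343, plus strand), a peroxisomal thiolase of fatty acid oxidation, and Add1 (chr5:34573414-34573713, plus strand), a protein of the membrane skeleton, had promoters covered by a gained region. Alb (chr5:90460620-90460919, plus strand), serum albumin, and Ahsg (chr16:22891765-22892064, plus strand), the plasma carrier fetuin-A, had promoters covered by a kept region. Hao1 (chr2:134554303-134554602, minus strand), the peroxisomal glycolate oxidase of hepatocytes, had a promoter covered by a lost region. Acaa1a, Add1, Alb and Ahsg were each among the 4 genes of their class with the highest WT RNA and a match. Hao1 had the higher WT RNA of the 2 genes of the lost class with a match. In the gained class Hmgn2 and Pfn1, with 2 matches each and higher WT RNA, are not shown.
Acaa1a: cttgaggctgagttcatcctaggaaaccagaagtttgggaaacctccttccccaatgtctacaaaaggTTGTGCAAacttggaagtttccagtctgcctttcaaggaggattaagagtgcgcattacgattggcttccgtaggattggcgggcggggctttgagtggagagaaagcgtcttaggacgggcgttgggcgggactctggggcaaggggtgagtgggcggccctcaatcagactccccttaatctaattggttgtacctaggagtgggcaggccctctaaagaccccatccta
Add1: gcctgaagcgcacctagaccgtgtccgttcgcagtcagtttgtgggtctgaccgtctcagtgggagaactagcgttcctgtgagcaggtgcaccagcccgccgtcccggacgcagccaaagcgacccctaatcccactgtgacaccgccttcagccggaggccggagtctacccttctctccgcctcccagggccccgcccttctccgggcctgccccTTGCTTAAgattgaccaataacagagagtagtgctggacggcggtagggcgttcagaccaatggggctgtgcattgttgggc
Alb: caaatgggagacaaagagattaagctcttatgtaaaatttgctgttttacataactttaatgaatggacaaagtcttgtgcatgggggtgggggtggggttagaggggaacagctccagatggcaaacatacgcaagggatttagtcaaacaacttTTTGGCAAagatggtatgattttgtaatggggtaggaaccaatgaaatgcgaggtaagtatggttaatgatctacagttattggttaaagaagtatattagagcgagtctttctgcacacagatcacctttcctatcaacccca
Ahsg: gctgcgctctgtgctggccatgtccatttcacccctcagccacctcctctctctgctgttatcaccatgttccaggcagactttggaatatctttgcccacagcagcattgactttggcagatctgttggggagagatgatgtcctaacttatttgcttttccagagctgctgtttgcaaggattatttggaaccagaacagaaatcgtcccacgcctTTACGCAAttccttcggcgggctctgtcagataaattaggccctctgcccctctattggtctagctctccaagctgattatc
Hao1: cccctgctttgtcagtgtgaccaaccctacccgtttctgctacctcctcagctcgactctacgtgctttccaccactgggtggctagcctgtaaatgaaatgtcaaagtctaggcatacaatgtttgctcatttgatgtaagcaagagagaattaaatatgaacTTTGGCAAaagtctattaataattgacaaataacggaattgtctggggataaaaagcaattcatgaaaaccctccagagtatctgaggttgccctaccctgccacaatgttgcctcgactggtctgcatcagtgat
The single match began 182 bases before the start site in Acaa1a, 32 before in Add1 and Ahsg, 94 before in Alb and 86 before in Hao1. Across coding genes matched to the RefSeq table by symbol, a match stood in 93 of 1050 promoters (8.86%) with at least 150 bp under a gained region and in 339 of 1822 (18.6%) under a kept region. It stood in 2 of 21 under a lost region, in 8.42% of 9454 promoters under none of these, and in 10.8% of all 22862 promoters of the table. The share under gained regions lay close to that of promoters with no region and below that under kept regions. The letters of the HNF4 motif, CAAAGTCCA on either strand, stood in 0.571% of promoters under gained regions, 0.933% under kept and 0.486% of all.

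Around 4 of 15 listed genes of gluconeogenesis (26.7%), a pathway that fasting turns on, both P0.5 lists held more C/EBPα peaks than both E18.5 lists, as they did around 18.4% of genes with any peak. Pck1, the cytosolic PEPCK that commits carbon to gluconeogenesis (mm9 chr2:172978549-172984774), had 5 and 7 peaks within 5 kb of its start site at P0.5, against 2 and 2 at E18.5, with 4 gained regions and 1 kept. G6pc, the glucose-6-phosphatase that releases free glucose (chr11:101228875-101239217), had 7 and 7 peaks at P0.5, against 4 and 4 at E18.5. Tat, the tyrosine aminotransferase that appears in rodent liver around birth (chr8:112514337-112523703), had 5 and 5 at P0.5, against 3 and 3 at E18.5. In each of these genes, the stages did not overlap, and the same held in lists of equal size, where Pck1 had 5 and 5 peaks at P0.5, against 2 and 2 at E18.5. All 15 listed genes of gluconeogenesis had a kept region, against 34.8% of the 37583 genes of the table, and 8 of them had a gained region as well, as did 38.1% of all genes with a kept region. None of the 15 had a lost region, and Crtc2, a coactivator of the cAMP response, had fewer peaks in both P0.5 lists. Without E18.5 replicate 2, 5 of the 15 had more peaks at P0.5 (33.3%, against 20.5% of genes with any peak) and 4 had fewer (26.7%, against 11%).

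Over the whole table, 3958 genes (10.5%) had more peaks within 5 kb in both P0.5 lists than in both E18.5 lists, and 260 (0.692%) had fewer. With lists of equal size these were 1925 (5.12%) and 980 (2.61%), and 1145 and 133 genes were in both sets. Among the 21470 genes with any peak the shares were 18.4% with more and 1.21% with fewer. The counts leaned on single lists: without E18.5 replicate 2 they were 4398 and 2367, without E18.5 replicate 1 9317 and 498, without P0.5 replicate 1 7374 and 495, and without P0.5 replicate 2 5636 and 779. Such a count was chosen after seeing the data, and a wide peak split in one list adds to it.

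Of the genes of fatty acid oxidation and ketone synthesis, 10 of 26 (38.5%) had more peaks in both P0.5 lists, 4 of them also in lists of equal size. None of the 26 had fewer in the full lists, and 3 had fewer in lists of equal size. Without E18.5 replicate 2, 12 had more (46.2%, against 20.5% of genes with any peak) and 1 had fewer. Cpt1a, the gate for fatty acids into mitochondria (mm9 chr19:3323301-3385732), had 7 and 6 peaks at P0.5, against 3 and 3 at E18.5, with 4 gained regions. Ehhadh, a peroxisomal oxidation enzyme, had 6 and 7 at P0.5, against 3 and 3 at E18.5, but 3 and 7 against 3 and 3 in lists of equal size, where the stages met. Angptl4, a secreted inhibitor of lipoprotein lipase that fasting induces, had 5 and 5 at P0.5, against 3 and 3 at E18.5. Of the 26 genes, 20 had at least 1 gained region, against 25.7% of all genes and 38.1% of genes with a kept region. With lists of equal size, 19 of the 26 had a kept region, 2 had gained regions alone, 2 had lost regions alone and 1 had both gained and lost ones. In the full lists, the 32 gained regions of the 26 genes stood beside 1 lost, where the whole comparison had 35080 gained and 5502 lost. Pdk4, the kinase that shuts off pyruvate dehydrogenase, and Etfdh, which passes electrons from fatty acid oxidation to the respiratory chain, had gained regions and no kept one, as did 12.0% of all genes. Pdk4 had 2 and 4 peaks at P0.5, against 1 and 2 at E18.5, where the stages met. Etfdh had 3 and 2 at P0.5, against 1 and 0 at E18.5.

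In the urea cycle and amino acid breakdown, single genes differed and most did not. Asl, argininosuccinate lyase, had 5 and 7 peaks at P0.5, against 2 and 2 at E18.5. Gldc, the decarboxylase of the glycine cleavage system, had 5 and 5 at P0.5, against 2 and 1 at E18.5, with 4 gained regions. Both held in lists of equal size. Cps1, the first enzyme of the urea cycle, had 4 and 6 at P0.5, against 4 and 4 at E18.5, where the stages met, and all its 4 regions were kept. Of 10 urea cycle genes 4 had more peaks at P0.5, and of 25 amino acid genes 4 had more (16.0%), where 18.4% of genes with any peak did. Of these, 1 and 3 also had more in lists of equal size, where Glul, the glutamine synthetase, Amt, of the glycine cleavage system, and Haao, of tryptophan breakdown, had fewer at P0.5. Of the 25 amino acid genes, 4 had more and 5 had fewer without E18.5 replicate 2. Otc, which makes citrulline, and Ftcd, a histidine-breakdown enzyme, had gained regions only, as did 12.0% of all genes. Ftcd had 1 and 1 peaks at P0.5, against 0 and 0 at E18.5. Otc had 2 and 2 at P0.5, against 2 and 0 at E18.5, so it lacked peaks in E18.5 replicate 2 only. In lists of equal size Otc had 1 and 1, against 2 and 0.

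Genes of fatty acid and cholesterol synthesis went both ways in the full lists. Of 20 listed, 5 had more peaks at P0.5 (25%, against 18.4% of genes with any peak) and 4 had fewer (20.0%, against 1.21% of genes with any peak and 0.692% of all genes). Without E18.5 replicate 2, 6 had more (30%, against 20.5% of genes with any peak) and again 4 had fewer (20%, against 11%). In lists of equal size 1 had more, Insig2, which holds back sterol synthesis, and 5 had fewer (25%, against 4.56% of genes with any peak). In these lists 23.5% of complement genes had fewer and none more, and 21.1% of plasma carrier genes had fewer and 26.3% more. Scd1, the desaturase that makes oleate (mm9 chr19:44468941-44482199), had 1 and 1 peaks at P0.5, against 3 and 2 at E18.5. Mlxipl, the carbohydrate-sensing factor ChREBP, had 1 and 1 at P0.5, against 2 and 2 at E18.5. Elovl6, a fatty acid elongase, had 3 and 2 at P0.5, against 4 and 4 at E18.5. In lists of equal size, Mlxipl and Elovl6 still had fewer at P0.5, and Scd1, with 1 and 0 at P0.5 against 1 and 2 at E18.5, did not. Acaca, acetyl-CoA carboxylase, had a lost region and no other, as did 1.02% of all genes. On the other side, Fasn, the fatty acid synthase, had 2 and 2 peaks at P0.5, against 1 and 1 at E18.5, but 2 and 1 against 1 and 1 in lists of equal size, where the stages met.

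**Figure D2:**
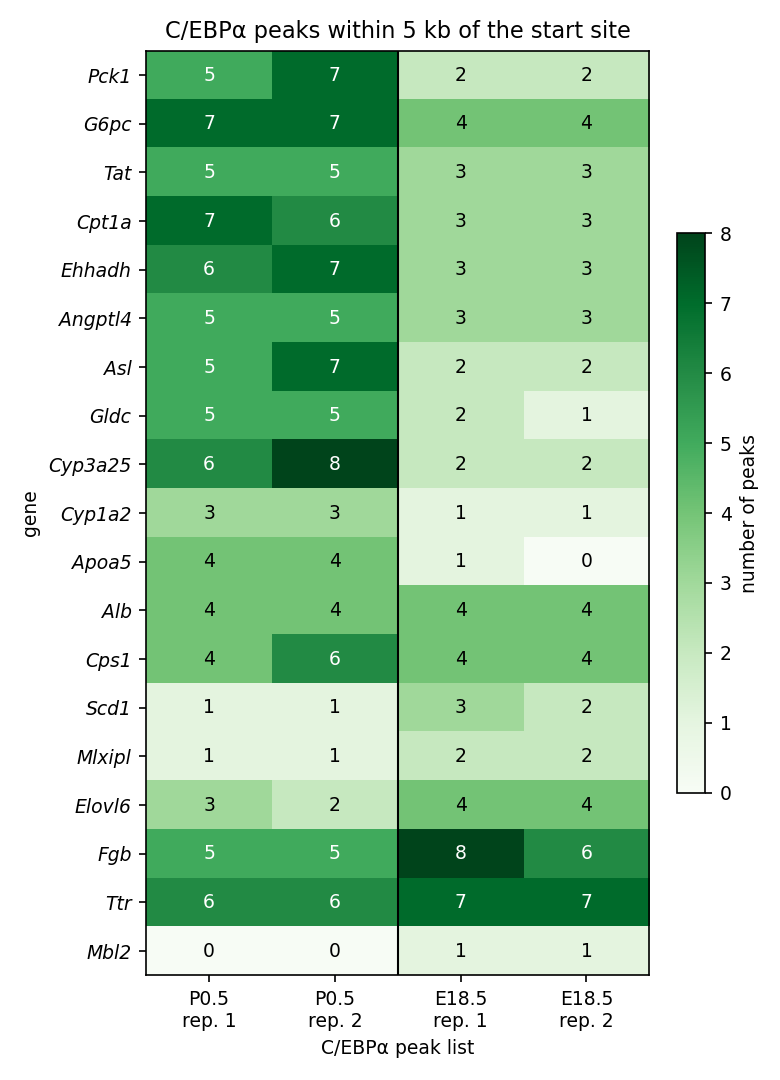
Number of C/EBPα peaks within 5 kb of the start site of each gene (rows) in the 2 P0.5 lists and the 2 E18.5 lists (columns); darker green means more peaks. Pck1, G6pc, Cpt1a, Asl and Cyp3a25 had more in both P0.5 lists, Alb had 4 in every list, and Scd1, Mlxipl, Elovl6, Fgb, Ttr and Mbl2 had fewer in both P0.5 lists.

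Plasma protein genes were mostly kept in the full lists, with a few exceptions in each direction. All 20 coagulation genes and all 15 acute phase genes had a kept region, against 34.8% of all genes and 42.1% of coding genes. Alb had 4 peaks in each of the 4 lists and Afp, the fetal albumin, had 5 in each. Fgb, the fibrinogen beta chain, had 5 and 5 at P0.5, against 8 and 6 at E18.5, with 2 lost regions. Ttr, the thyroid hormone carrier transthyretin, had 6 and 6 at P0.5, against 7 and 7 at E18.5. Mbl2, a mannose-binding lectin of the complement system (mm9 chr19:30307418-30314175), was the only listed gene besides Acaca with a lost region alone, with 0 and 0 peaks at P0.5, against 1 and 1 at E18.5. The 3 of them held in lists of equal size. In those lists 3 of 20 coagulation, 4 of 17 complement, 4 of 19 plasma carrier and 2 of 15 acute phase genes had fewer at P0.5. In the same order 1, 0, 5 and 0 had more. Of genes with any peak, 4.56% had fewer and 8.97% more. Apoa5, which activates the clearance of triglycerides (chr9:46076716-46080002), had 4 and 4 at P0.5, against 1 and 0 at E18.5, and 3 gained regions with none kept. Cyp3a25, a drug-metabolising cytochrome P450, had 6 and 8 at P0.5, against 2 and 2 at E18.5, and this held in lists of equal size.

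Of liver transcription factors, 25 of 26 had a kept region in the full lists, against 34.8% of all genes. With lists of equal size 19 of the 26 had one, as did 9729 of the 37583 genes of the table. Another 3 had lost regions alone, 2 gained and lost ones, 1 gained regions alone and 1 none. In the full lists Rxra, the shared partner of nuclear receptors, had gained regions only. Hnf4a had 2 peaks in each list. Cebpa itself had 6 and 4 peaks at P0.5, against 5 and 7 at E18.5, and Cebpb, the close relative that acts in fasting and inflammation, had 4 and 3 at P0.5, against 2 and 2 at E18.5, which did not hold in lists of equal size. Among all genes, those with the largest gap between the stages, chosen after their values were seen, included Agpat2, an enzyme of triglyceride synthesis, with 11 and 10 peaks at P0.5, against 6 and 5 at E18.5. In the other direction stood Tbcel, a tubulin-binding protein, with 1 and 2 at P0.5, against 6 and 5 at E18.5, and A2m, the protease inhibitor alpha-2-macroglobulin, with 1 and 1 at P0.5, against 4 and 3 at E18.5.

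In the full lists, macrophage, neutrophil and stellate cell markers each held more peaks in all in both P0.5 lists than in both E18.5 lists. The totals of the other cell types listed met or overlapped between the stages. In a whole-liver sample, fewer cells of a type and less signal per cell cannot be told apart. The 11 macrophage markers held 15 and 15 peaks in all at P0.5, against 6 and 4 at E18.5, and 5 of them (C1qb, Cd163, Cd68, Csf1r and Emr1) had more peaks at P0.5 (45.5%, against 18.4% of genes with any peak). None of the 5 did so in lists of equal size, and 5 of the 11 had more without E18.5 replicate 2, against 20.5% of genes with any peak. Vsig4 and Cd5l had no peak in any list. The 11 markers of neutrophils and their precursors, in which C/EBPα is also known to act, held 26 and 26 at P0.5, against 23 and 14 at E18.5. A kept region stood at 10 of them, against 34.8% of all genes. The 13 erythroid markers held 5 and 8 at P0.5, against 5 and 3 at E18.5, and the 4 globin genes had no peak in any list. The 12 endothelial markers held 12 and 17 at P0.5, against 12 and 9 at E18.5, and the 11 stellate cell markers 7 and 9, against 6 and 3. The 7 megakaryocyte markers held 4 and 5 at P0.5, against 4 and 4 at E18.5, and the 9 bile duct markers 12 and 11, against 12 and 8. The part of these cells in the results above was not tested.

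Of regions with no E18.5 peak, the widest in its narrower replicate (1019 bp) lay at the shared promoter of Hspe1 and Hspd1, the mitochondrial chaperonins (mm9 chr1:55144321-55145389), and overlapped C/EBPα at P14 and both HNF4α stages. The next lay 9659 bp past the start of Tat (chr8:112523524-112524470), and others lay near Slc19a1, the folate carrier, in Mnt, a repressor of the Myc network, and in Mat1a, which makes S-adenosylmethionine. Of regions with no P0.5 peak, the widest lay in Papss1, which makes the sulfate donor PAPS (chr3:131272156-131272955), Lztr1, Zmiz1, Gm15319 and Trf, the gene of transferrin. The 5 widest kept regions measured between 4810 and 38645 bp. The longest lay at chr9:2999983-3038627 and 2 lay in Sfi1. All 5 overlapped C/EBPα regions of E15.5, P14 and P60 and also HNF4α regions of E18.5. Every list held a peak of 38494 to 38645 bp, against median widths of 337 to 364 bp. No region was filtered out here as an artefact of mapping, and whether regions this wide are C/EBPα binding was not tested.

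Kept regions overlapped binding at the other stages in larger shares than gained and lost ones. C/EBPα regions of E15.5 overlapped 0.336% of gained, 16.9% of kept and 0.981% of lost regions. At P14 these shares were 9.5%, 50.4% and 11.3%, and at P60 12.3%, 51.2% and 19.7% (for lost regions at P60, the widest of these, the exact 95% interval of counting error was 18.7% to 20.8%). Of gained regions 83.2% overlapped no region of another C/EBPα stage, against 37.4% of kept and 75.6% of lost regions. Kept regions were wider, with a median of 512 bp, against 368 bp for gained and 363 bp for lost regions; among regions of 350 to 450 bp, the P60 shares were 12.5% for gained, 34.9% for kept and 19.5% for lost. Without E18.5 replicate 2 the P60 shares were 11.1%, 41.4% and 12.4%, and with lists of equal size 20.4%, 60.5% and 34.7%. The order at P14 and P60, with kept above lost and lost above gained, held in lists of equal size, while at P14 without E18.5 replicate 2 gained (9.57%) stood above lost (6.58%).

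The steps on both sides of birth differed in size. From E15.5 to E18.5, 54960 regions were gained, 9995 kept and 353 lost, and from P0.5 to P14, 3531 were gained, 31135 kept and 61189 lost. The stages' region sets differed in length, with 10419 at E15.5, 65021 at E18.5, 94619 at P0.5, 34737 at P14 and 44217 at P60, and the steps were not compared at equal length.

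HNF4α is a nuclear receptor known to bind many liver genes together with C/EBPα. Its regions at P0.5 overlapped 7.94% of gained, 23.7% of kept and 11.3% of lost C/EBPα regions, and at E18.5 2.02%, 9.59% and 4.53%. Without E18.5 replicate 2 of C/EBPα the P0.5 shares were 8.85%, 19.6% and 7.65%, and with lists of equal size 12.2%, 31.8% and 12.1%. Lost regions thus did not stand above gained ones at P0.5 in these settings. At E18.5 they did, with 2.39% against 2.12% and 4.43% against 3.5%. Both HNF4α lists at P0.5 held identical values and counted as 1 list. Among regions of 350 to 450 bp the P0.5 shares were 8.13% for gained, 10.5% for kept and 11.6% for lost, and the E18.5 shares 1.98%, 3.48% and 4.4%, so lost regions stood highest at both stages.

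**Figure D3:**
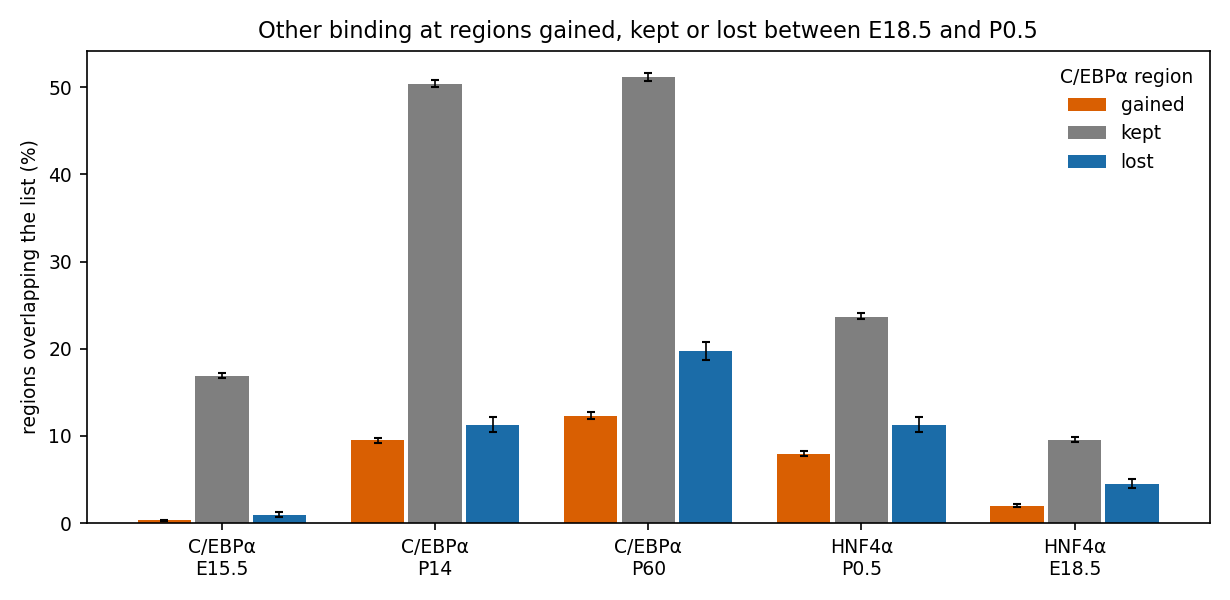
Share (%) of gained, kept and lost C/EBPα regions that overlap C/EBPα regions of E15.5, P14 and P60 and HNF4α regions of P0.5 and E18.5; error bars are exact 95% binomial intervals of counting error. Kept regions stand highest in each set, with 51.2% at P60, against 12.3% of gained and 19.7% of lost regions.

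Gained and kept regions lay near start sites in like shares, and lost regions in smaller ones. A start site lay within 1 kb of 11.4% of gained, 10.2% of kept and 4.8% of lost regions, and within 5 kb of 26.9%, 26.0% and 17.9%. The median distance to a start site was 16.1, 16.4 and 21.5 kb. A kept region lay within 10 kb of 57.0% of gained and 60.8% of lost regions. Within 5 kb of their start sites, 13083 genes had a kept region, 4513 had gained regions without a kept or lost one, and 385 had lost regions alone. Without E18.5 replicate 2 the numbers were 15974, 1474 and 1864, without P0.5 replicate 1 146 genes had lost regions alone, and with lists of equal size 9729, 2652 and 1744. Coding genes with a kept region had a median WT RNA value of 363 normalized reads, against 170 for genes with gained regions alone, 110 with lost regions alone and 1.33 with none.

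Of the 509 genes whose RNA fell in livers without C/EBPα, 436 had a kept region, as did 9151 of the 17771 genes tested. Cebpa RNA was at 322, 419 and 998 normalized reads in the C/EBPα knockout libraries, against 9999, 9594 and 5511 in WT, a log2 change of -3.98 ± 0.44 (SE, limma, adjusted p = 0.000413), and the third knockout library had the highest level of the 3. With limma on log2(value + 1) and Benjamini-Hochberg adjustment, 157 of 17771 genes tested (0.883%) rose and 509 (2.86%) fell in the knockout at an adjusted p under 0.05. Of genes with a kept region 4.76% fell and 0.612% rose. Of genes with gained regions alone 0.736% fell and 0.625% rose, and of those with none 0.837% fell and 1.44% rose. Of 173 genes with lost regions alone 5 fell and 3 rose. The share that fell was 2.67% with 1 kept region, 5.86% with 2 and 11.3% with 3 or more, while the median WT value of these genes was 266, 470 and 811. A gained region beside a kept one went with 4.82% falling, against 4.72% for a kept region without a gained one. The part of the RNA level in these shares was not tested, and no test was made between the classes.

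In each setting tried, a larger share of genes with a kept region fell than of genes with gained regions alone, while the number of calls moved. Without the third knockout library, 804 genes were called. Without WT replicate 1, WT replicate 2 or knockout replicate 1, 311, 402 and 406 genes were called in place of 666, of which 243, 313 and 312 had a kept region and 14, 19 and 22 gained regions alone. Over the 6 fits that left out 1 library, 2.48% to 6.24% of genes with a kept region fell, and 0.26% to 1.3% of genes with gained regions alone. With library totals made equal, the median of all genes moved to 0.533 on the log2 scale, 474 genes rose and 324 fell, and 3.03% of genes with a kept region fell, against 0.441% with gained regions alone. Classes built without E18.5 replicate 2 gave 4.14% falling with kept, 0.581% with gained and 1.59% with lost regions.

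**Figure D4:**
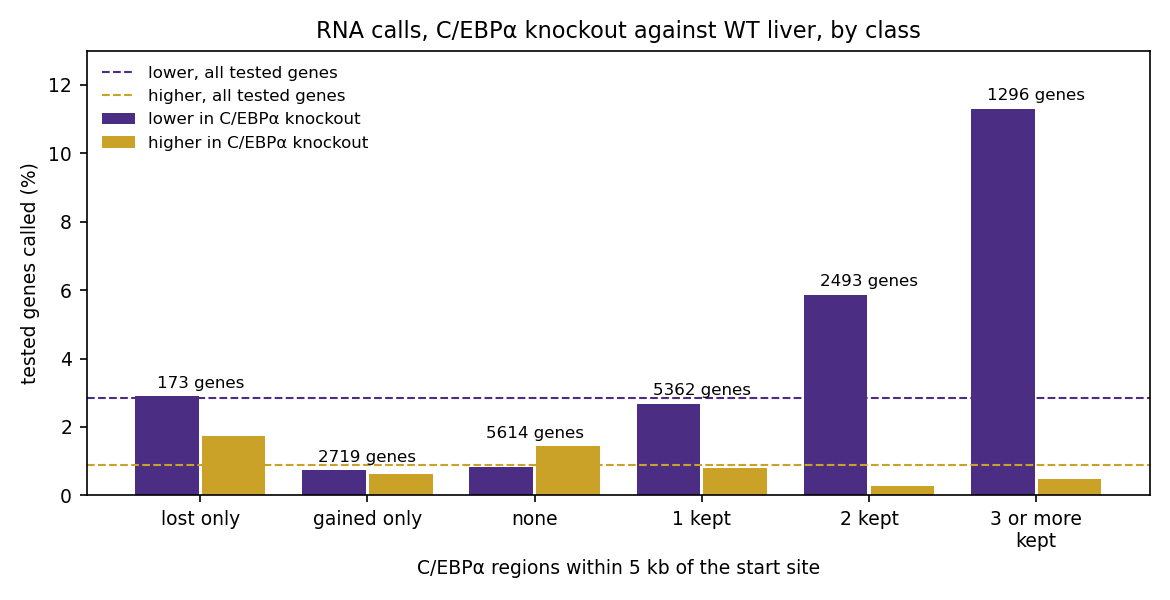
Share (%) of tested genes lower (purple) and higher (yellow) in C/EBPα knockout against WT liver, by the C/EBPα regions within 5 kb of the start site; dashed lines give all tested genes (2.86% lower, 0.883% higher) and the number of tested genes stands over each pair. The share lower in the knockout was 0.736% with gained regions only and 11.3% with 3 or more kept regions.

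Genes whose binding differed across birth did not share 1 response to the loss of C/EBPα. Of 2770 tested genes with more peaks in both P0.5 lists, 2.45% fell and 0.397% rose, against 2.86% and 0.883% of all genes tested. Of 150 tested genes with fewer peaks, 12 fell (8.0%) and none rose. Of tested genes with a kept region 4.76% fell, and of those with a kept and a lost region 11.3%. The shares for genes with more or fewer peaks are given for the full lists only. The single genes named next were not picked to stand for these sets. G6pc was at 164, 191 and 1564 normalized reads in the knockout, against 5442, 3833 and 7562 in WT, and fell by 3.88 on the log2 scale (SE 0.71, limma adjusted p = 0.0107). Pck1 was at 13, 29 and 792 in the knockout, against 1059, 937 and 1635 in WT; the groups did not overlap, and its change of -4.08 ± 1.13 missed the threshold (limma adjusted p = 0.0828). Tat was at 12, 3 and 120 in the knockout, against 687, 359 and 545 in WT, and fell by 4.8 (limma adjusted p = 0.0168). The gene lists were chosen with earlier results of these data known, so their shares are no independent test. Of the 15 gluconeogenesis genes 9 fell and none rose, where 2.86% of all genes tested fell and 0.883% rose. Their median log2 change was -2.67, against 0.03 over all genes tested. In fatty acid oxidation 6 of 25 tested genes fell, against the same 2.86%, with a median of -1.06. Cpt1a and Ehhadh were not among them, with changes of -0.64 and -1.22 (limma adjusted p = 0.394 and 0.312).

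Apoa5, with gained regions alone, was at 54, 13 and 77 in the knockout, against 1032, 1598 and 376 in WT, and fell by 4.45 (limma adjusted p = 0.00352). Mbl2, with a lost region alone, was at 113, 132 and 225 in the knockout, against 878, 1640 and 1362 in WT, and fell by 3.05 (limma adjusted p = 0.00149). Scd1 was at 652, 509 and 637 in the knockout, against 2762, 1731 and 7474 in WT, and fell by 2.47 (limma adjusted p = 0.0125). Cyp3a25 fell by 8.27, to 5, 0 and 11 in the knockout, against 1616, 1188 and 1093 in WT (limma adjusted p = 0.000213). Of the 10 genes with gained regions alone and the highest WT RNA, among them Actb (beta-actin), Atp5b (ATP synthase beta) and Rpl13 (a ribosomal protein), 1 fell, Scp2, a sterol carrier protein, with 2949, 2968 and 4359 in the knockout, against 14727, 12605 and 10078 in WT (log2 change -1.87, limma adjusted p = 0.00785). Of the 10 with lost regions alone, led by Eef1a1, a translation elongation factor, the changes lay between -0.42 and 0.62 (limma adjusted p from 0.434 to 0.931).

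The largest falls among genes with gained regions alone were those of Serpina3c, a serine protease inhibitor (-5.56), Abcg5, a sterol exporter to bile (-5.39), and Apoa5. Serpina3c was at 3, 2 and 10 in the knockout, against 607, 1089 and 20 in WT, so 1 WT library stood near the knockout. The largest rises in that class were those of Cdh16, a cadherin known from kidney (7.13, with 349, 178 and 262 in the knockout, against 0, 0 and 5 in WT), Sucnr1, the succinate receptor (4.65), and Cldn6, a tight junction protein (3.99). Among genes with a kept region, Cyp3a25, Serpina3k, Hfe2, the hemojuvelin of iron control, and Cps1 had the largest falls, with log2 changes of -8.27, -7.94, -7.67 and -7.62. Serpina3k was at 94, 31 and 219 in the knockout, against 53144, 44680 and 4142 in WT. Serpina6, the corticosteroid carrier of plasma, rose most in this class, with 54960, 32605 and 21688 in the knockout, against 173, 166 and 412 in WT (log2 change 7.21 ± 0.47, limma adjusted p = 2.48e-05). Its number of peaks, 4 and 5 at P0.5 against 5 and 3 at E18.5, overlapped between the stages. Each fall named here was larger than the shift of 0.533 that equal totals give.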

How the data were processed

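Peaks were called by the authors with MACS 1.4 on the mouse build mm9, per the submitters' processing notes, which also name BWA, TopHat2, Cufflinks, bedtools, DESeq, FastQC and bcl2fastq. The score column of each deposited peak list is 0 throughout, so peak height and significance were not used, and the read depth of the ChIP libraries is unknown. The RNA table was deposited as a score per gene, which the authors name DESeq-normalized: reads divided by a size factor and rounded, with totals of 13.4 to 26 M per library. The table also gives the authors' fraction of GC per gene, not used here, and positions, from which start sites were taken. Intervals were merged and compared with Python 3.11.15, numpy 2.4.6 and pandas 2.3.3. RNA was tested with limma 3.58.1 in R 4.3.3, with a trend, on log2(value + 1), over genes at 10 or more in at least 2 libraries, all 8 libraries in 1 fit; fold changes of low genes are understated on this scale. Both scripts were tested on simulated data. The named genes were members of 25 gene lists, the genes of each class with the highest WT RNA or largest called change, and the widest regions; genes outside this rule are said to be chosen after their values were seen. The members and lists were chosen with earlier results of these data known. Design text calls the ChIP replicates biological; nothing says that RNA libraries came from separate litters, so p-values measure the spread between these libraries. Promoters come from RefSeq (GRCm38.p6), whose start sites can differ from those of the table; 13606 genes matched by symbol. RNA polymerase II and input samples were not analysed here, and some listed genes are counted but not reported by name.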

Additional observations from a re-analysis of the deposited data

How the results depend on the processing

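The classes of region followed the lists used. With same-numbered replicates paired (a replicate block), number 1 gave 22258 gained and 23250 lost regions and number 2 gave 56271 gained and 4901 lost; nothing in the labels says that ChIP numbers mark a shared litter. Leaving out 1 list at a time gave 14615 to 58265 gained, 3088 to 26976 lost, and 1474 to 6316 genes with gained regions alone and 146 to 1864 with lost regions alone. Lists cut to equal size, by width, gave 15256 gained, 35773 kept and 15447 lost regions, and 2652 and 1744 genes with gained or lost regions alone. Asking for no peak in either list of the other stage left 12846 gained and 1946 lost. With start sites within 1 kb, 7208 genes had a kept region and 234 lost regions alone. With the centre of a region inside the other region, the shares of gained, kept and lost regions were 0.334%, 15.8% and 0.927% at E15.5, 8.61%, 49.9% and 10.2% at P14, 11.9%, 50.6% and 19.2% at P60, 6.76%, 22.3% and 10.1% with HNF4α at P0.5, and 1.72%, 8.59% and 4.31% with HNF4α at E18.5. Genes with more peaks at P0.5 numbered 4398 to 9317 and those with fewer 495 to 2367 when 1 list was left out, 1925 and 980 with lists of equal size, and 2054 and 130 within 1 kb; this count, the equal lists for genes, the fits without E18.5 replicate 2 for other binding and the 350 to 450 bp subset were chosen after seeing the data. In RNA, equal totals gave 82 calls with gained regions alone and 220 with none; leaving out 1 library gave 311 to 804 calls in all, 243 to 619 with a kept region, 14 to 50 with gained regions alone, 4 to 7 with lost regions alone and 49 to 126 with none. The RNA replicate block gave 509 calls; same-numbered libraries correlated at -0.06, 0.19 and -0.23, so the numbers do not pair the libraries. A stricter peak threshold was not run, because the lists hold no peak score. The causes of these moves were not tested, beyond fewer peaks or libraries entering the fits that leave some out.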

Other observations

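Markers of the bile duct lining were higher in the C/EBPα knockout. Of 9 listed genes 5 rose and none fell, with a median log2 change of 2.26, where 0.883% of all genes tested rose. The list was chosen with earlier results of these data known. Sox9, a factor of the duct lineage, was at 1016, 5477 and 1039 normalized reads in the knockout, against 122, 246 and 460 in WT (log2 change 2.9 ± 0.65, limma adjusted p = 0.031). Cldn4, a tight junction protein, was at 100, 160 and 1064 in the knockout, against 14, 0 and 16 in WT (5.35 ± 1.11, limma adjusted p = 0.0213), and held 3 kept C/EBPα regions. Spp1, Prom1 and Cldn7 rose by 2.19, 2.26 and 4.01, and Cldn7 had no peak near its start site in any list. More duct cells and more RNA per cell cannot be told apart.

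In the cell cycle list, also chosen with earlier results known, 4 of 22 genes rose in the knockout and none fell. Of all genes tested 0.883% rose and 2.86% fell. Ccnd1, a cyclin of the entry into the cycle, had gained regions alone, with 2 and 2 peaks at P0.5, against 1 and 0 at E18.5, and rose by 1.86 (limma adjusted p = 0.00785). Ccnd2 and Ccne1 rose by 1.55 and 1.16, and Plk1, a mitotic kinase with no peak in any list, rose by 1.17 (limma adjusted p = 0.046). Of 15 fetal liver genes Hmga2, an architectural chromatin protein, rose by 2.16 (limma adjusted p = 0.0378), against the same shares, and none fell, while Dlk1 had both a gained and a lost region and changed by 1.89 (limma adjusted p = 0.144).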
